A study of Mus musculus with 9 samples.

Results

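Hepa1-6 is a mouse hepatoma line, and tumors grown from it in the liver differ in how they respond to an antibody against PD-1, the inhibitory receptor of activated T cells. Here the 3 responsive tumors were compared with the other 6 tumors of the series taken as 1 group. The members were chosen by label: all 9 tumors of the series entered, 3 labelled responsive, 3 nonresponsive and 3 PBS. The question was which transcripts set the responsive tumors apart from all the others, whether or not the mouse had received the antibody.

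The mice were male C57BL/6, of an age the labels do not give, and all 9 carried an orthotopic Hepa1-6 tumor. The responsive and nonresponsive groups received the anti-PD-1 antibody intraperitoneally and the PBS group the vehicle, 5 injections spaced 4 days apart. Antibody-treated tumors of intermediate size were not sequenced: the 3 smallest were labelled responsive and the 3 largest nonresponsive, so response and tumor size cannot be told apart in any comparison below. Each tumor came whole from 1 mouse, was freed of surrounding tissue and was profiled by bulk RNA sequencing. All tumors derive from 1 cell line, so the 3 tumors of a group sample mice and grafts, not independent cancers.

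Expression was read as FPKM, the number of fragments per kilobase of transcript, scaled to the mapped fragments of the library, and compared on a log2(FPKM + 1) scale, which understates the change of genes with low FPKM. Genes whose entries were merged in any tumor were treated as 1 locus with summed FPKM. Of 48254 loci, 13185 reached an FPKM of 1 in 3 or more tumors and were tested with limma. The pooled set of the other 6 tumors holds both untreated and treated mice. Some differences, not all, are therefore also given against the PBS and the nonresponsive tumors alone. Those 2 comparisons share the responsive tumors and are set side by side without a test of one against the other. Fewer cells of a type and less RNA per cell cannot be told apart in bulk tissue.

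Some libraries stood apart before any comparison. PBS tumor 1 was the lowest of the 9, and more than 8-fold below the median of the others, at 504 loci, against 105 for nonresponsive tumor 1, 103 for responsive tumor 1 and 16 to 23 for each of the others. Nonresponsive tumor 1 and responsive tumor 1 were both below the other 7, and more than 8-fold below the median of those, at 165 loci, whereas the next pair shared 41. These loci included Afp, the fetal albumin that Hepa1-6 cells make, at FPKM of 0.321 and 0.646 in those 2 tumors and 4.40 to 56.5 in the other 7. Stra6 (0.621 and 0.688), Ido1 (0.410 and 0.112) and Wnt6 with Wnt10a (1.46 and 0.948) were also low in both. Transcripts of other tissues stood out in single tumors. The pancreatic genes Ctrb1 and Prss2 had FPKM of 415 and 255 in nonresponsive tumor 2. Elsewhere Ctrb1 was listed at 0 and Prss2 at 0 to 0.354. The loci of a skeletal muscle list summed to 416 in nonresponsive tumor 3 and to 81.6 to 172 in the others. The source of these transcripts was not tested. Genes without a name held 19.2 to 81.5% of all FPKM in a tumor and were left out. The named genes summed to 762517.4 to 812504.6 FPKM in responsive tumors and to 648245.9 to 740062.8 in the others, so the scaling bears on the direction of small changes. Library depth, read from the smallest steps between low FPKM values, ranged from 0.936 to 1.07 times that of PBS tumor 1.

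At an adjusted p under 0.05 (Benjamini-Hochberg over all loci tested), 5 loci were higher in responsive tumors (0.0379% of those tested) and 2 were lower (0.0152%). Each of the 7 was listed at 0 in 3 or more tumors, reached the FPKM filter only through the tumors where it is high, and is described at the end. Among the 11929 loci above 0 in all 9 tumors the smallest adjusted p was 0.156, so no gene detected throughout passed the adjusted test. The remaining results therefore rest on the unadjusted limma p: a locus is called here when that p is under 0.05. By this rule 1018 loci were called higher (7.72%) and 585 lower (4.44%). Of these, 96 of the higher and 83 of the lower loci reached the FPKM filter only through the tumors where they are higher. Such a locus, as 1728 of the 13185 tested were, is favored to differ by the filter itself. The 3 responsive values lay above all 6 others at 492 loci (3.73%) and below all 6 at 346 (2.62%). Against PBS tumors alone, with 12715 loci tested, 1159 loci were called higher (9.12%) and 1275 lower (10.03%). Against nonresponsive tumors alone, with 12716 tested, 555 were called higher (4.36%) and 199 lower (1.56%).

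Single tumors carried much of these counts. The higher calls fell to 426 without responsive tumor 1 and to 631 without responsive tumor 3. The lower calls fell to 230 and 386 in the same fits, and rose to 943 without responsive tumor 2 and to 2084 without nonresponsive tumor 1. The scaling also moved the balance: of all calls 63.5% were higher, but only 26.4% (622 higher, 1734 lower) after the named loci of each tumor were rescaled to a common total. The median log2 difference over all loci was -0.09 as deposited and -0.25 after that rescaling. List medians below are to be read against -0.09, and 40.3% of all loci had a difference above 0.

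**Figure D1:**
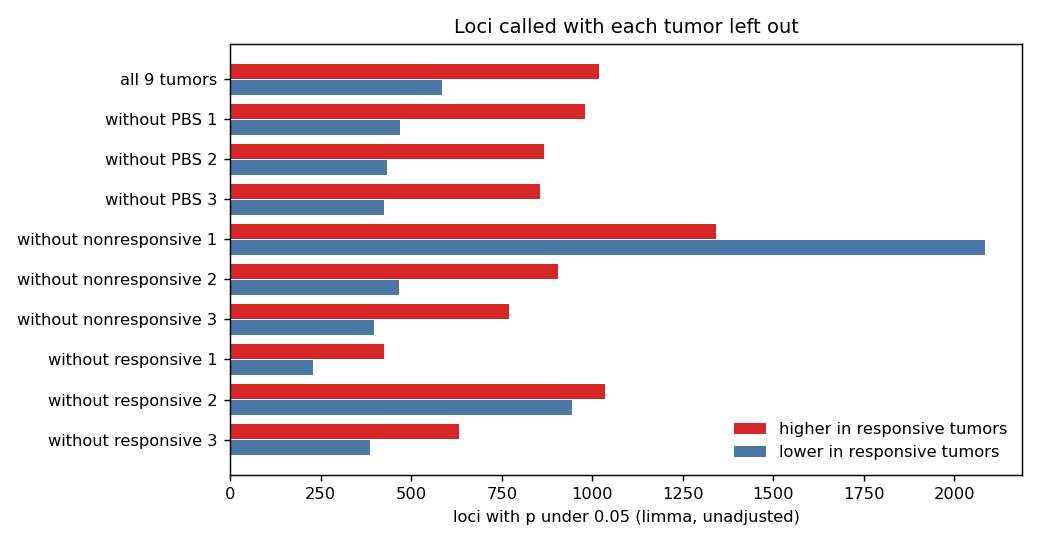
Number of loci called higher and lower in responsive tumors (limma, unadjusted p under 0.05) with all 9 tumors and with each tumor left out in turn. Lower calls reached 2084 without nonresponsive tumor 1, and both counts were smallest without responsive tumor 1, at 426 and 230.

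The liver's own program was the clearest difference. Hepatocytes make most plasma proteins, clear ammonia through the urea cycle, oxidize fatty acids, turn cholesterol into bile acids and detoxify compounds with cytochrome P450 enzymes and conjugating transferases. Hepatoma cells keep part of this program, which is held in place by transcription factors such as HNF4A and CEBPA. In 15 lists of liver genes covering 190 loci, 186 loci had a higher mean in responsive tumors, 133 were called higher (70.0%, against 7.72% of all loci) and 0 were called lower. The median log2 difference was 1.73, and it was 2.29 against PBS and 1.12 against nonresponsive tumors. The smallest adjusted p among these loci was 0.231. Of the 190 loci 2 reached the FPKM filter only through the tumors where they are higher, and 1 of those was called. The lists were drawn up with earlier results of these data known. Fatty acid synthesis, described below, and cholesterol synthesis and uptake were kept outside the 15. Of 19 loci of the cholesterol list 14 were higher and 1 was called (7.72% of all loci were), with a median of 0.45.

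The mean log2(FPKM + 1) over the 190 loci was 6.91, 5.93 and 6.29 in responsive tumors 1 to 3. It was 6.06, 5.13 and 4.66 in nonresponsive tumors and 2.79, 4.81 and 5.09 in PBS tumors. Responsive tumors thus separated from PBS tumors at 170 loci, with no overlap, but from nonresponsive tumors at 58, and nonresponsive tumor 1 reached above responsive tumor 2 in this mean. Over all loci, responsive tumors lay above all PBS tumors at 1497 of 12715 and above all nonresponsive tumors at 724 of 12716. PBS tumor 1 was the lowest of the 9 at 173 of the loci and responsive tumor 1 the highest at 172. Without responsive tumor 1 the count of called loci was 35 (median 1.45) and without responsive tumor 3 it was 66 (median 1.77), while it was 156 without PBS tumor 1 and 172 without nonresponsive tumor 1. Liver tissue around the graft holds the same transcripts, and its part in these values was not tested. Markers of 2 further liver-resident cells were measured beside them. Of 7 Kupffer cell loci 7 were higher and 0 were called, with list means of 3.65 to 5.32 in responsive tumors and 1.12 to 4.99 in the others. Their median log2 difference was 1.49, with 2.2 against PBS and 0.37 against nonresponsive tumors. It was 0.85 without PBS tumor 1 and 0.81 without responsive tumor 1. Of 9 sinusoidal endothelial loci 7 were higher and 1 was called (7.72% of all loci were), with list means of 3.27 to 4.11 and 1.92 to 3.77. Their median was 0.74, with 0.84 against PBS and 0.55 against nonresponsive tumors. The call, at Dnase1l3, was lost in 6 of the 9 fits that left out 1 tumor.

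**Figure D2:**
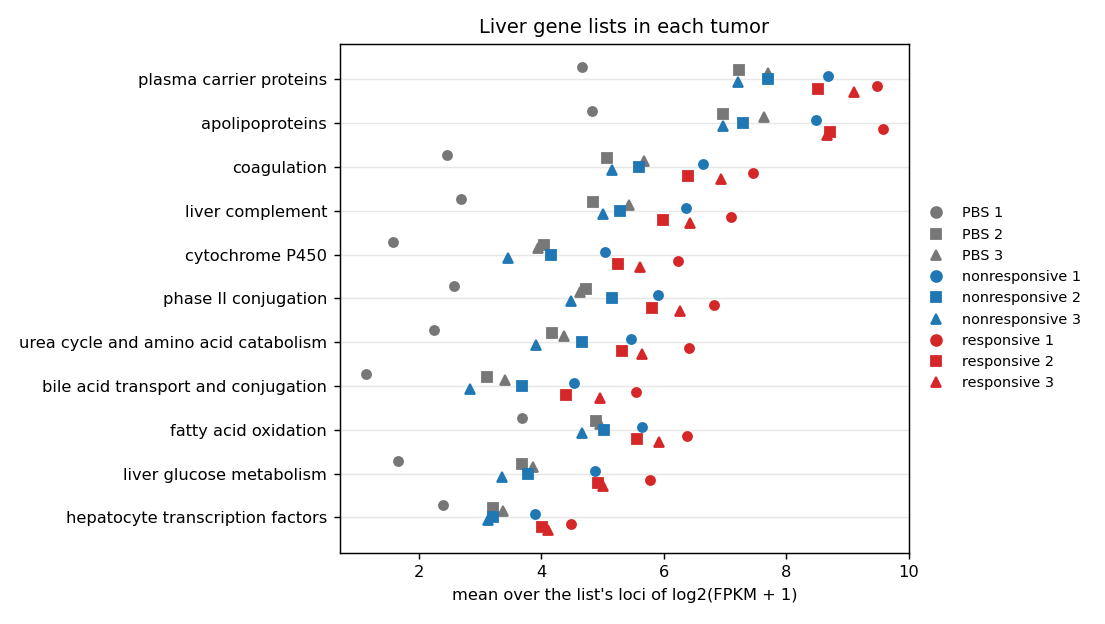
Mean log2(FPKM + 1) over the loci of each liver gene list (rows) in each of the 9 tumors, with symbols for PBS, nonresponsive and responsive tumors. PBS tumor 1 is the lowest in all 11 lists, and nonresponsive tumor 1 lies within the range of the responsive tumors in 7 lists and below all 3 in 4.

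The 9 increases described next, among the 10 largest without overlap at loci above 0 in all tumors, were all genes of liver metabolism or secretion. G6pc, the catalytic subunit of glucose-6-phosphatase, which releases glucose from liver, had FPKM of 41.5, 16.8 and 13.4 in responsive tumors and 0.210 to 6.18 (median 3.67) in the others. Its log2 difference was 2.60 ± 0.59 (SE; exact permutation p = 0.0238, limma p = 0.00166, adjusted p = 0.231), with 2.91 against PBS and 2.30 against nonresponsive tumors. Every responsive tumor exceeded every other tumor by at least the gap from 6.18 to 13.4. The exact permutation test over the 84 ways to choose 3 of 9 tumors gives p = 0.0238 at every locus without overlap, the smallest value that design allows, and is printed beside the unadjusted limma p throughout.

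Car3, the carbonic anhydrase of liver, muscle and fat, had FPKM of 318, 154 and 244 against 10.98 to 76.0 (median 42.5), a log2 difference of 2.49 ± 0.54 (exact permutation p = 0.0238, limma p = 0.00133). Cyp2f2, a periportal P450, had 28.0, 27.0 and 18.9 against 0.376 to 11.3 (median 3.30), a difference of 2.56 ± 0.57 (exact permutation p = 0.0238, limma p = 0.00147). Sult2a8, a liver sulfotransferase, had 105, 43.7 and 57.4 against 1.46 to 34.0 (median 13.3), a difference of 2.5 ± 0.72 (exact permutation p = 0.0238, limma p = 0.00714). In these 3 the highest of the other tumors was nonresponsive tumor 1 or, for Car3, nonresponsive tumor 2, and PBS tumor 1 was the lowest. The locus of Cyp2c29 with a Cyp2c53 pseudogene had 105, 69.8 and 83.7 against 1.36 to 34.4 (median 23.0), a difference of 2.54 ± 0.82 (exact permutation p = 0.0238, limma p = 0.0125), and reads may be split between near-identical Cyp2c genes.

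The next 4 rested on 1 or more single tumors. Inmt, an indolethylamine methyltransferase (171, 86.0 and 114 against 1.56 to 73.5), had exact permutation p = 0.0238, limma p = 0.0194 and 0.0678 without responsive tumor 1. Gnmt, which consumes S-adenosylmethionine (258, 133 and 128 against 2.89 to 117), had exact permutation p = 0.0238, limma p = 0.0194 and 0.0729 without that tumor. Apob, the core protein of VLDL (377, 177 and 243 against 6.93 to 168), had exact permutation p = 0.0238, limma p = 0.0145 and 0.0566 without it. Hpd, of tyrosine breakdown, had 306, 146 and 181 against 3.36 to 140.0, with exact permutation p = 0.0238, limma p = 0.0238, 0.0824 without responsive tumor 1 and 0.0518 without responsive tumor 3. The log2 differences of these 4 lay between 2.46 and 2.52, as large as those of the first 5.

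Among 19 cytochrome P450 loci 19 were higher, 17 were called and 10 had no overlap (3.73% of all loci did), with a median of 2.08. The called loci numbered 7 without responsive tumor 1, 10 without responsive tumor 3 and 11 without nonresponsive tumor 3. Cyp8b1, which makes the 12-hydroxylated bile acids, had FPKM of 19.5, 7.54 and 7.57 against 0.476 to 3.71 (median 1.61), a difference of 2.12 ± 0.41 (exact permutation p = 0.0238, limma p = 0.000544). The locus of the fatty acid hydroxylases Cyp4a10, Cyp4a31 and Cyp4a32 had 11.04, 8.11 and 8.19 against 0.112 to 2.57 (median 2.11), a difference of 2.07 ± 0.41 (exact permutation p = 0.0238, limma p = 0.000668). Both had similar differences against each group, 2.26 and 1.98 for Cyp8b1 and 2.07 and 2.06 for the Cyp4a locus, against PBS and nonresponsive tumors in that order. The most abundant member, Cyp2e1 of alcohol oxidation, had 1673, 833 and 1039 against 23.7 to 678 (exact permutation p = 0.0238, limma p = 0.0258, and 0.0861 and 0.0561 without responsive tumor 1 and 3).

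The promoter of Cyp8b1 is shown because it carries the core motif of HNF4A, whose gene was itself called higher. The sequence is from RefSeq on GRCm38.p6, chr9:121916256-121916555 on the minus strand, 250 bases before to 50 after the start of the gene, 5′ to 3′, with the letters CAAAGTCCA in capitals.
Cyp8b1: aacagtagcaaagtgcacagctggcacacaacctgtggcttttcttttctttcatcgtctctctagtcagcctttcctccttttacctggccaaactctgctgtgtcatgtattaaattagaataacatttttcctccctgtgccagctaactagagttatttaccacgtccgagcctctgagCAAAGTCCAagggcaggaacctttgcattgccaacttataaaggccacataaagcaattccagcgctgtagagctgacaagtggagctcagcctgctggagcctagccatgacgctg
The letters CAAAGTCCA, searched on both strands, occurred in 0.555% of 27025 mouse promoters of this length, in 16.7% of 18 P450 promoters, in 0 of 10 apolipoprotein, 0 of 9 plasma carrier, 0 of 15 coagulation and 0 of 14 hepatocyte factor promoters, in 1.70% of 647 promoters of genes called higher and in 0 of 377 of genes called lower. A match of letters in this window is a description and not a bound site.

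Conjugating and amino acid enzymes followed the P450 genes. Of 15 phase II loci 15 were higher and 12 were called (median 1.87), with 1 left without responsive tumor 1 and 3 without responsive tumor 3. Of 22 urea cycle and amino acid loci 21 were higher and 18 were called (median 1.83), with 5 and 11 left in the same order. Hal, histidine ammonia-lyase, had FPKM of 9.75, 7.16 and 2.90 against 0.184 to 2.53 (median 1.05), a difference of 1.75 ± 0.42 (exact permutation p = 0.0238, limma p = 0.00243). The exception was Arg1, the last enzyme of the urea cycle and also a product of myeloid cells, at 407, 150.0 and 177 against 68.9 to 676 (median 299), a difference of -0.20 ± 0.67 (exact permutation p = 0.786, limma p = 0.768). The step before it is Asl, whose locus with Gusb had 125, 72.6 and 88.9 against 52.3 to 88.1 (exact permutation p = 0.0952, limma p = 0.0650). Ass1, the argininosuccinate synthase of the cycle, had 242, 104 and 152 against 17.2 to 173 (exact permutation p = 0.0714, limma p = 0.0699).

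Of 12 bile acid loci 12 were higher and 10 were called (median 1.81), with 2 left without responsive tumor 1, 5 without responsive tumor 3 and 6 without nonresponsive tumor 3. Slco1a1, an importer of bile acids and steroids, had FPKM of 42.1, 14.9 and 21.6 against 0.405 to 13.004 (median 3.93), a difference of 2.42 ± 0.62 (exact permutation p = 0.0238, limma p = 0.00343). Of 17 fatty acid oxidation loci 17 were higher and 14 were called, but with a smaller median of 0.92, and 6 and 7 were left without responsive tumor 1 and 3. Cpt2, the inner carnitine palmitoyltransferase of mitochondria, had 22.9, 17.3 and 18.8 against 10.03 to 14.2 (median 12.5), a difference of 0.62 ± 0.15 (exact permutation p = 0.0238, limma p = 0.00253). Acadvl, which opens the oxidation of very long chains, had 86.2, 58.4 and 57.3 against 25.9 to 51.6 (median 33.2), a difference of 0.92 ± 0.23 (exact permutation p = 0.0238, limma p = 0.00280). These mitochondrial genes, which cells outside the liver also express, differed by less than liver-restricted enzymes yet without overlap.

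Of 10 liver glucose loci 10 were higher and 7 were called (median 1.62, 2 without responsive tumor 1). Pklr, the liver pyruvate kinase, had FPKM of 21.1, 17.9 and 23.7 against 2.09 to 16.4 (median 6.07), a difference of 1.59 ± 0.46 (exact permutation p = 0.0238, limma p = 0.00729). Of 11 fatty acid synthesis loci 9 were higher and 3 were called (against 7.72% of all loci; median 0.25). Fasn, fatty acid synthase, had 43.6, 36.8 and 60.8 against 24.1 to 29.8 (median 27.3), a difference of 0.75 ± 0.17 (exact permutation p = 0.0238, limma p = 0.00165). Mlxipl, the carbohydrate-responsive factor ChREBP, had 13.9, 8.29 and 8.32 against 1.84 to 7.15 (exact permutation p = 0.0238, limma p = 0.00437). Both lay above every other tumor.

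Secreted proteins moved with the enzymes, with wider spread. Of 11 apolipoprotein loci 11 were higher and 10 were called (median 2.17), but only 1 without responsive tumor 1, 5 without each of PBS tumor 2, nonresponsive tumor 3 and responsive tumor 3, and 6 without responsive tumor 2. Apoa4, an apolipoprotein of lipid absorption and fasting liver, had FPKM of 9.53, 9.65 and 6.32 in responsive tumors, was listed at 0 in nonresponsive tumor 1 and reached 2.44 at most elsewhere (exact permutation p = 0.0238, limma p = 0.000767). Of 12 plasma carrier loci 12 were higher and 5 were called (median 1.88), with 10 called without PBS tumor 1 or nonresponsive tumor 1 and 2 without responsive tumor 1 or 3. Rbp4, the retinol carrier, had 1174, 819 and 833 against 126 to 632 (median 272), a difference of 1.75 ± 0.42 (exact permutation p = 0.0238, limma p = 0.00244). Alb, albumin, had 5041, 2576 and 4396 against 173 to 2678 (median 1072), so nonresponsive tumor 1 overlapped with responsive tumor 2 (exact permutation p = 0.0476, limma p = 0.0218, and 0.0715 and 0.0628 without responsive tumor 1 and 3). Of 15 coagulation loci 15 were higher and 8 were called (14 without PBS tumor 1 or nonresponsive tumor 1, 4 without PBS tumor 2 or nonresponsive tumor 3, and 2, 5 and 3 without responsive tumor 1, 2 and 3). Of 14 complement loci 14 were higher and 6 were called (10 without PBS tumor 1, 12 without nonresponsive tumor 1, 3 without PBS tumor 2 or nonresponsive tumor 3, and 1 without responsive tumor 1 or 3). Of 12 acute phase loci 12 were higher (median 1.54) but 2 were called (7.72% of all loci were). The calls numbered 0 without responsive tumor 1 or 3, 0 after rescaling, 5 without PBS tumor 1 and 6 without nonresponsive tumor 1.

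The factors behind the hepatocyte program were also higher, by smaller amounts. Of 15 loci 14 were higher and 11 were called (median 0.96), with 3, 5 and 7 left without responsive tumor 1, responsive tumor 3 and nonresponsive tumor 3. Hnf4a, the nuclear receptor at the center of hepatocyte identity, had FPKM of 38.3, 24.7 and 39.0 against 11.2 to 23.7 (median 12.5), a difference of 1.22 ± 0.25 (exact permutation p = 0.0238, limma p = 0.000863). The remaining tumors lay mostly between 11.2 and 12.8, and the highest, 23.7, was nonresponsive tumor 1. Foxa1, a pioneer factor of liver, had 3.73, 3.55 and 2.11 against 0.797 to 1.52 (median 1.25), a difference of 0.87 ± 0.19 (exact permutation p = 0.0238, limma p = 0.00155). Cebpa was not called, at 123, 53.4 and 69.4 against 17.3 to 92.1 (exact permutation p = 0.119, limma p = 0.0692), and nonresponsive tumor 1 lay above responsive tumors 2 and 3. Foxa2 did not follow, at 5.59, 50.4 and 11.4 against 3.04 to 60.5 (exact permutation p = 0.548, limma p = 0.504). It was low in nonresponsive tumor 1 and responsive tumor 1, the 2 tumors that shared low loci. Glul and Lgr4 were the 2 called of 12 Wnt target loci, of which 6 were higher, against 7.72% of all loci called higher. Glul, the glutamine synthetase of hepatocytes around the central vein, had 299, 229 and 279.8 against 76.7 to 189 (median 124), a difference of 1.16 ± 0.30 (exact permutation p = 0.0238, limma p = 0.00398).

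**Figure D3:**
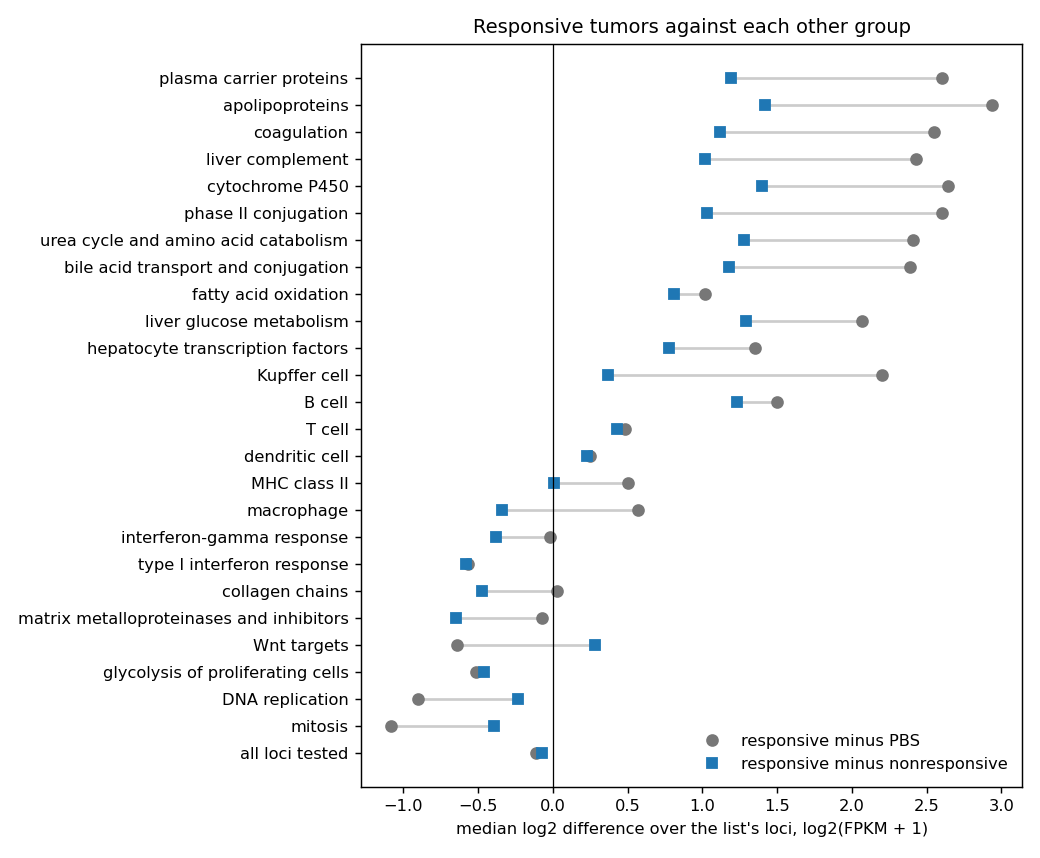
Median log2 difference of responsive tumors over the loci of each gene list, against PBS tumors and against nonresponsive tumors, on the log2(FPKM + 1) scale. Liver lists lie to the right of 0 against both groups and farther against PBS tumors, and the type I interferon list lies to the left against both.

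Genes lower in responsive tumors formed no liver group. The largest decreases without overlap among loci above 0 in all tumors were led by Alox15, the 12/15-lipoxygenase of eosinophils and some macrophages. Its FPKM were 0.297, 0.0890 and 0.0450 in responsive tumors against 1.29 to 8.57 (median 2.18) in the others, a difference of -1.74 ± 0.44 (exact permutation p = 0.0238, limma p = 0.00339, adjusted p = 0.251). The difference was -1.32 against PBS and -2.16 against nonresponsive tumors. Alox15 reached the FPKM filter only through the other tumors, which favored a difference. The joined locus of Chek1, the replication checkpoint kinase, and Stt3a, a subunit of oligosaccharyltransferase, had 25.5, 32.5 and 35.8 against 51.8 to 87.9 (median 80.1), a difference of -1.23 ± 0.20 (exact permutation p = 0.0238, limma p = 0.000162, adjusted p = 0.160). It is the locus with the smallest p among those named with all tumors above 0, and its 2 genes cannot be separated. Prrc1, a protein of the early secretory pathway, had 12.2, 17.9 and 12.02 against 22.7 to 49.8 (median 31.9), a difference of -1.15 ± 0.25 (exact permutation p = 0.0238, limma p = 0.00122).

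Spred1, an inhibitor of RAS signaling, had FPKM of 12.005, 16.9 and 18.6 against 22.4 to 38.6 (median 33.4), a difference of -1.0 ± 0.20 (exact permutation p = 0.0238, limma p = 0.000794). The locus of Tnpo1, a nuclear import receptor, with Gm35215 had 16.4, 26.2 and 23.1 against 27.3 to 67.3 (median 55.1), a difference of -1.18 ± 0.28 (exact permutation p = 0.0238, limma p = 0.00198). Lrr1, a substrate adaptor that unloads replication complexes, had 0.471, 2.08 and 1.82 against 2.53 to 6.51 (median 4.19), a difference of -1.13 ± 0.31 (exact permutation p = 0.0238, limma p = 0.00583). In all 3 of these loci the differences against PBS and against nonresponsive tumors lay between -1.36 and -0.93. Like Alox15, Lrr1 reached the FPKM filter only through the other tumors, as did the next locus. Cysltr1, a receptor for cysteinyl leukotrienes, had 2.45, 0.950 and 3.21 against 3.23 to 11.5, with exact permutation p = 0.0238, limma p = 0.0157 and 0.0822 without responsive tumor 2. The small RNA gene Gm22009 had 2.51, 2.57 and 3.13 against 3.24 to 30.4, with exact permutation p = 0.0238, limma p = 0.0189, 0.0529 without responsive tumor 1 and 0.0516 without responsive tumor 2.

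Matrix genes were among the lowest. Mmp12, the elastase of macrophages, had FPKM of 122, 76.3 and 102 against 136 to 312 (median 223), a difference of -1.09 ± 0.33 (exact permutation p = 0.0238, limma p = 0.00882). Timp3, an inhibitor of metalloproteinases bound to the matrix, had 64.8, 88.5 and 76.5 against 95.1 to 150.3 (median 115), a difference of -0.61 ± 0.17 (exact permutation p = 0.0238, limma p = 0.00606). Col12a1, a fibril-associated collagen, had 12.6, 13.1 and 9.93 against 20.4 to 48.9 (median 26.6), a difference of -1.20 ± 0.25 (exact permutation p = 0.0238, limma p = 0.00110). All 3 lay below every other tumor. Timp1 had 123, 143 and 106 against 139.6 to 269 (exact permutation p = 0.0476, limma p = 0.0123, and 0.0570 without responsive tumor 3), and the locus of Col8a1 with Cmss1 had 21.2, 31.1 and 24.9 against 26.7 to 55.1 (exact permutation p = 0.0476, limma p = 0.0160, and 0.0723 without responsive tumor 1).

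The main fibrillar collagens did not share the call. Of 11 metalloproteinase and inhibitor loci 10 were lower and 3 were called lower (27.3% of the list, against 4.44% of all loci), with 2 left without responsive tumor 3 and a median of -0.42. Of 15 collagen loci 13 were lower and 2 were called (1 without responsive tumor 1; 4.44% of all loci were), with a median of -0.34 that was -0.47 against nonresponsive tumors and 0.03 against PBS tumors. Col1a1 had FPKM of 540.1, 568 and 644 against 510.1 to 1138 (exact permutation p = 0.262, limma p = 0.175), and Col3a1 had 758, 460.0 and 684 against 392 to 1400.3 (exact permutation p = 0.429, limma p = 0.409). Macrophages express Mmp12, and of 15 macrophage loci 11 were higher and 0 were called by limma at an unadjusted p under 0.05 or by a Student test per locus. Their median of 0.11 turned to -0.07 after rescaling, to -0.17 without PBS tumor 1 and to -0.22 without responsive tumor 1. It was -0.34 against nonresponsive tumors, with 1 locus called lower, and their part in the Mmp12 values was not tested.

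**Figure D4:**
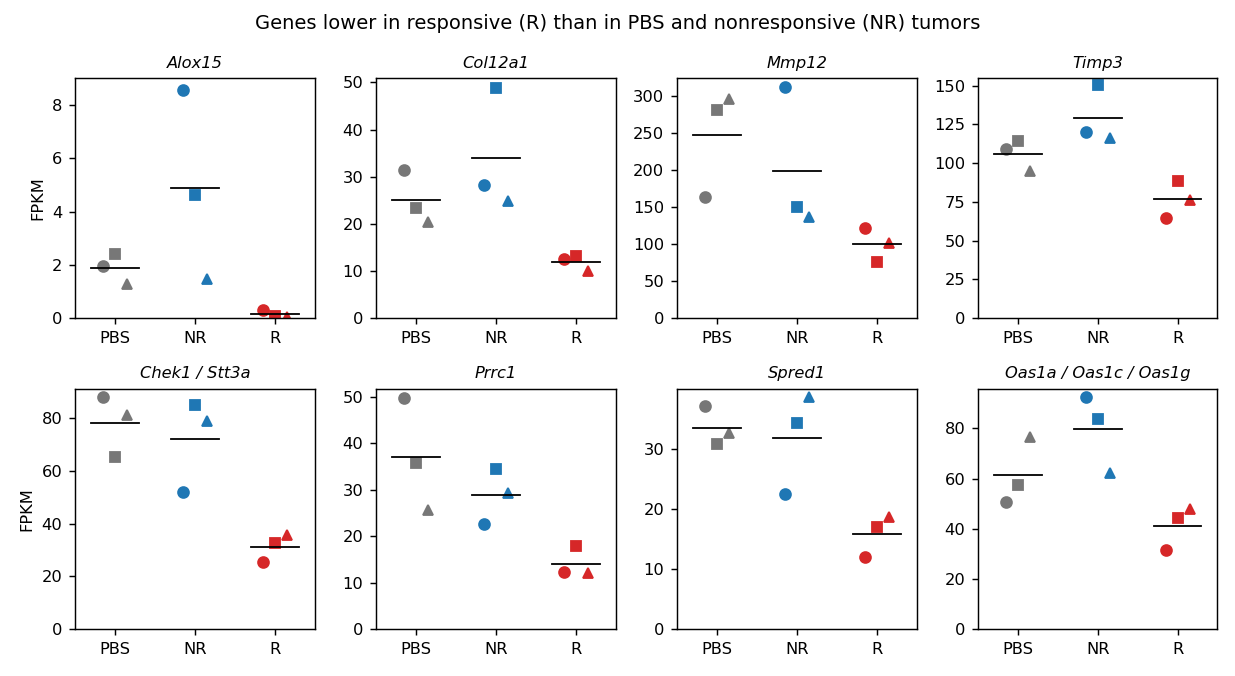
FPKM of 8 loci that were lower in responsive tumors, on linear axes from 0, for PBS, nonresponsive (NR) and responsive (R) tumors. Circles, squares and triangles are replicates 1, 2 and 3 and the line is the group mean, and the 3 responsive points of each locus lie below the 6 others.

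Interferon-stimulated genes had lower means in responsive tumors. Type I interferons signal to transcription factors that bind the interferon-stimulated response element and induce antiviral enzymes such as the oligoadenylate synthetases. Of 19 loci of this response 19 were lower and 6 were called lower (31.6% of the list, against 4.44% of all loci), with a median of -0.62. The mean log2(FPKM + 1) over the list was 3.72, 4.48 and 4.49 in responsive tumors 1 to 3 and 4.56 to 5.0 in the others, so the groups did not overlap, though responsive tumors 2 and 3 lay within 0.08 of PBS tumor 1. Responsive tumor 1 carried the calls: without it 1 was left (median -0.28), and without both nonresponsive tumor 1 and responsive tumor 1 there were 0 (median -0.31). Without responsive tumor 2 there were 10. Against PBS tumors 0 were called and against nonresponsive tumors 3, with medians of -0.57 and -0.58. The median stayed below 0 under all 25 alternatives.

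Oas3 had FPKM of 5.93, 9.90 and 11.9 in responsive tumors against 11.8 to 20.4 (median 16.6) in the others, a difference of -0.80 ± 0.24 (exact permutation p = 0.0476, limma p = 0.00823). The locus of Oas1a, Oas1c and Oas1g had 31.4, 44.2 and 48.0 against 50.5 to 92.6 (median 69.4), a difference of -0.75 ± 0.23 (exact permutation p = 0.0238, limma p = 0.00922, and 0.0504 without responsive tumor 1), and was the 1 locus of the list without overlap. Oasl2 had 32.0, 62.1 and 59.2 against 61.3 to 95.7 (exact permutation p = 0.0476, limma p = 0.0219, and 0.112 without responsive tumor 1). Isg15, the ubiquitin-like modifier, had 97.3, 138 and 141 against 89.4 to 243 (exact permutation p = 0.381, limma p = 0.336), and Irf7 had 36.0, 101 and 81.1 against 48.8 to 119 (exact permutation p = 0.524, limma p = 0.513).

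The promoters of Oas1a and Oas3 are printed because both genes belong to called loci and both hold the letters of the response element. They are from RefSeq on GRCm38.p6, 250 bases before to 50 after the start of the gene, 5′ to 3′, at chr5:120907476-120907775 for Oas1a and chr5:120777610-120777909 for Oas3, both on the minus strand. Capitals mark the core of the element, GAAA, any 2 bases, GAAA, which in Oas1a occurs as a pair of overlapping copies.
Oas1a: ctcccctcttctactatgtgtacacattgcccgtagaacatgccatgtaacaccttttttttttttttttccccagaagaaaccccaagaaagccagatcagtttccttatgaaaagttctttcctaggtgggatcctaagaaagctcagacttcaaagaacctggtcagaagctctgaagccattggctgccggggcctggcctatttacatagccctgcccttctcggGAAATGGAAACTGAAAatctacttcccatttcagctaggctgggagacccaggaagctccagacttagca
Oas3: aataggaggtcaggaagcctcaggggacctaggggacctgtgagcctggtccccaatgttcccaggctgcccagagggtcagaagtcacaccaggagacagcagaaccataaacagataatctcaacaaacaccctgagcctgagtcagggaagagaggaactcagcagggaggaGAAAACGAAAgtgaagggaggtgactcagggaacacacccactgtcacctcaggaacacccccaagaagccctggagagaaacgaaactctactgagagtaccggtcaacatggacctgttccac
Searched on both strands, this core occurred in 3.99% of 27025 promoters, in 8 of 15 promoters of the type I list and in 9 of 15 of an interferon-gamma list. It occurred in 4.24% of 377 promoters of genes called lower and in 3.09% of 647 of genes called higher, so the letters were as common among lower genes as among all promoters.

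Genes induced by interferon-gamma, the cytokine of activated T cells, did not move as a group. Of 18 loci 14 were lower and 1 was called lower (4.44% of all loci were), with a median of -0.27 that was 0.15 without responsive tumor 1. The called locus, of the guanylate-binding protein Gbp7, had FPKM of 12.7, 44.2 and 33.5 against 35.8 to 69.0 (exact permutation p = 0.0952, limma p = 0.0402, and 0.0521 to 0.205 without any 1 of PBS tumors 2 and 3, nonresponsive tumors 2 and 3 and responsive tumor 1). Ifng itself had 1.80, 6.10 and 6.31 against 1.44 to 7.56 (exact permutation p = 0.952, limma p = 0.930). Psmb8 with Tap1, the most abundant locus of the list, had 272, 585 and 474 against 127 to 534 (exact permutation p = 0.524, limma p = 0.442).

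B cell genes were the immune list with the most calls. B cells recognize antigen through a receptor that signals via CD79A and CD79B, and PAX5 maintains their identity. Of 15 loci 15 were higher and 10 were called (66.7% of the list, against 7.72% of all loci), with a median of 1.54 that was 1.5 against PBS and 1.23 against nonresponsive tumors. The list mean was 3.88, 2.69 and 4.33 in responsive tumors 1 to 3 and 0.91 to 3.08 in the others. Responsive tumor 2 thus lay below PBS tumor 2, and 2 of the 15 loci had no overlap (3.73% of all loci lay above all 6 others). The called loci numbered 5 without responsive tumor 1 and 3 without responsive tumor 3, and PBS tumor 1 was lowest of the 9 in the list mean.

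Fcer2a, the low-affinity IgE receptor CD23 of mature B cells, had FPKM of 9.09, 4.23 and 13.4 against 0.121 to 2.41 (median 1.45), a difference of 1.96 ± 0.41 (exact permutation p = 0.0238, limma p = 0.000938). Pax5 had 3.85, 1.77 and 7.34 against 1.07 to 1.98 (median 1.16), a difference of 1.08 ± 0.31 (exact permutation p = 0.0476, limma p = 0.00682). Spib, a factor that B cells share with plasmacytoid dendritic cells, had 14.8, 6.96 and 23.8 against 0.760 to 7.44 (median 3.84), a difference of 1.76 ± 0.52 (exact permutation p = 0.0476, limma p = 0.00843). Cd79a had 47.0, 24.4 and 67.4, against 0 in nonresponsive tumor 1 and up to 23.6 in PBS tumor 2 (exact permutation p = 0.0238, limma p = 0.0171, and 0.0636 without responsive tumor 3). In each of these genes responsive tumor 2 was the lowest of the 3 responsive tumors and PBS tumor 2 the highest of the others. Of 10 plasma cell loci 10 were higher and 1 was called (7.72% of all loci were), a locus that reached the FPKM filter only through responsive tumors. Their median was 1.52 and was 0.65 without PBS tumor 1. The list mean was 6.25 to 7.9 in responsive tumors and 3.21 to 7.23 in the others.

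MHC class II genes divided. Of 9 loci 9 were higher and 2 were called (against 7.72% of all loci), H2-Ob and H2-Oa, which encode the DO heterodimer that B cells use to tune peptide loading. H2-Ob had FPKM of 11.4, 8.23 and 24.6 against 0.693 to 7.40 (median 2.85), a difference of 1.78 ± 0.53 (exact permutation p = 0.0238, limma p = 0.00830). H2-Oa had 12.7, 7.64 and 22.5 against 1.54 to 9.36 (exact permutation p = 0.0714, limma p = 0.0361, and 0.0546, 0.0656, 0.0757 and 0.162 without nonresponsive tumor 2, nonresponsive tumor 3, responsive tumor 1 and responsive tumor 3). The genes that all antigen-presenting cells express did not separate, with Cd74 at 2065, 2442 and 3222 against 1385 to 2901 (exact permutation p = 0.667, limma p = 0.660) and H2-Ab1 with H2-Eb1 at 1683, 2008 and 2135 against 991 to 2599 (exact permutation p = 0.524, limma p = 0.508).

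T cell genes had slightly higher means. Of 20 loci 17 were higher and 5 were called (against 7.72% of all loci), with a median of 0.46, and the other 15 did not pass. Against PBS tumors 1 was called (9.12% of all loci were), and against nonresponsive tumors 6 were (4.36% of all loci were). The 5 calls against the pooled tumors went to 0 without responsive tumor 2 or 3 and to 2 without PBS tumor 3 or nonresponsive tumor 3. They went to 3 without nonresponsive tumor 2 or responsive tumor 1, to 7 without PBS tumor 2 and to 0 after rescaling. Zap70, a kinase of the T cell receptor, had FPKM of 11.5, 12.2 and 15.1 against 3.70 to 10.5 (median 8.03), a difference of 0.69 ± 0.27 (exact permutation p = 0.0238, limma p = 0.0331), and p was 0.0505 to 0.116 without any 1 of nonresponsive tumors 2 and 3 and the 3 responsive tumors. Cd3d had 12.8, 15.2 and 14.4 against 3.98 to 12.8 (exact permutation p = 0.0476, limma p = 0.0237, and 0.0707 and 0.0630 without responsive tumor 2 and 3). Tcf7, the factor TCF-1 of naive and stem-like T cells, had 14.3, 109.7 and 43.6 against 7.40 to 158 (exact permutation p = 0.405, limma p = 0.432), lowest in nonresponsive tumor 1 and responsive tumor 1 and highest in PBS tumor 1, where the T cell list mean was lowest of the 9.

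Dendritic cell genes gave 3 calls of 13 loci, against 7.72% of all loci called higher, and 10 were higher (median 0.23). The locus of Clec9a, a receptor of cross-presenting dendritic cells, with Clec1b had FPKM of 14.0, 11.2 and 12.9 against 0 to 7.83 (exact permutation p = 0.0238, limma p = 0.0177, and 0.0514 without responsive tumor 1). Flt3 had 3.89, 4.72 and 3.88 against 0.766 to 3.64 (exact permutation p = 0.0238, limma p = 0.0292, and 0.0502 to 0.0879 without any 1 of PBS tumor 3, nonresponsive tumor 3 and the 3 responsive tumors). The calls went to 0 without responsive tumor 1 and to 1 without PBS tumor 3, nonresponsive tumor 3 or responsive tumor 3.

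By flow cytometry the study counted tumor macrophages and T cells that carry marker proteins. It reported that these counts differed between responsive mice and the other groups. Those were numbers of cells, taken in more mice per group than were sequenced. Here the transcripts of the markers were read in RNA of whole tumors, so their values do not test the cell counts. These transcripts did not separate responsive tumors from the rest. Of 10 loci 4 were higher and 0 were called by limma at an unadjusted p under 0.05 or by a Student test per locus. Against PBS tumors alone 0 were called, and against nonresponsive tumors alone 1 was called higher (4.36% of all loci were). Pdcd1, which encodes PD-1, had FPKM of 8.18, 7.39 and 7.23 against 1.44 to 8.65 (median 4.35), a difference of 0.77 ± 0.36 (exact permutation p = 0.0952, limma p = 0.0650). The overlap was with PBS tumor 2, while the nonresponsive tumors lay at 3.75 to 4.97, below all responsive tumors. Cd8a had 2.46, 22.8 and 19.1 against 4.70 to 24.4 (exact permutation p = 0.452, limma p = 0.509), with responsive tumor 1 the lowest of all 9. Mrc1, the mannose receptor CD206, had 23.0, 10.7 and 19.9 against 12.1 to 47.4 (exact permutation p = 0.619, limma p = 0.531), and Cd86 had 16.2, 7.53 and 16.8 against 5.73 to 20.7 (exact permutation p = 1.00000, limma p = 0.964).

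Genes of dividing cells were lower in the mean without passing the test. Of 19 mitosis loci 19 were lower with a median of -0.68, and of 14 DNA replication loci 14 were lower with a median of -0.58. In both lists 0 were called by limma at an unadjusted p under 0.05 and 0 by a Student test per locus. Cdk1, the kinase that starts mitosis, had FPKM of 15.4, 106 and 57.4 against 23.1 to 208 (median 129), a difference of -1.18 ± 0.78 (exact permutation p = 0.238, limma p = 0.163). The mitosis list mean was 3.16, 4.52 and 4.24 in responsive tumors and 4.47 to 5.47 in 5 of the others, but 2.87 in nonresponsive tumor 1. Without that tumor 16 mitosis and 9 replication loci were called lower, and against PBS tumors alone 6 and 3 were.

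Of 12 glycolysis loci 12 were lower and 2 were called lower (against 4.44% of all loci; median -0.40), Eno1 and Pgam1. Eno1, enolase, had FPKM of 351, 517 and 391 against 474 to 674 (exact permutation p = 0.0476, limma p = 0.0241, and 0.107 and 0.0793 without responsive tumor 1 and 3). The calls went to 0 without either of those tumors and to 8 without responsive tumor 2. Aldoa, the aldolase of muscle and tumors, had 439, 1666 and 669 against 595 to 1468 (exact permutation p = 0.429, limma p = 0.409).

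Among 12 oncofetal and progenitor loci 5 were higher and 2 were called higher (against 7.72% of all loci). Epcam, an adhesion molecule of bile duct and progenitor cells, had FPKM of 13.6, 13.4 and 20.9 against 2.14 to 11.4 (median 5.12), a difference of 1.46 ± 0.44 (exact permutation p = 0.0238, limma p = 0.00853). Prom1, the progenitor marker CD133, had 3.47, 1.81 and 5.52 against 0.203 to 2.18 (exact permutation p = 0.0476, limma p = 0.0254, and 0.0649 and 0.123 without responsive tumor 1 and 3). Afp had 0.646, 53.9 and 4.40 against 0.321 to 56.5 (exact permutation p = 0.571, limma p = 0.529), so the responsive group alone spanned nearly the whole range of the series. Of 10 NRF2 target loci 5 were higher and 5 lower, with a median of 0.03. In this list 2 were called higher and 1 lower, against 7.72% and 4.44% of all loci. Gclc, which limits glutathione synthesis, had 41.0, 28.6 and 46.7 against 9.36 to 22.4 (median 18.7), a difference of 1.13 ± 0.27 (exact permutation p = 0.0238, limma p = 0.00213). The other higher call, at the Gclm locus (exact permutation p = 0.0714, limma p = 0.0449), was lost in 8 of the 9 fits that left out 1 tumor. The lower call, G6pdx of the pentose phosphate pathway, had 20.1, 22.2 and 24.7 against 25.5 to 38.7 (exact permutation p = 0.0238, limma p = 0.0204, and 0.0798 without responsive tumor 1). Gclc and G6pdx, 2 enzymes of redox supply, thus moved in opposite directions.

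Alox15 prompted a look at other eosinophil genes, a list drawn up after its values were seen. Of the 6 other loci 6 were lower and 3 were called lower, and those 3, Ccr3, Ear6 and Siglecf, reached the FPKM filter only through the tumors where they are high, so the count supports nothing. Ccr3, the eotaxin receptor, had FPKM of 0.289, 0.190 and 0.158 against 0.317 to 2.43. Ear6, an eosinophil ribonuclease, had 0, 0.108 and 0.325 against 0.343 to 4.26. Both lie near the lower limit of the filter. Prg2, the major basic protein, had 3.56, 2.102 and 8.77 against 0.799 to 24.7 (exact permutation p = 0.571, limma p = 0.532).

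The 7 loci past the adjusted threshold were each present in one set of tumors and listed at 0 in the other. All 7 reached the FPKM filter only through the tumors where they are high, so they had to differ, and their adjusted p describes that form and supports nothing further. Tmed1, of vesicle transport, had FPKM of 18.99, 11.4 and 16.9 in responsive tumors and was listed at 0 in the 6 others (adjusted p = 3.05e-05). Pdzk1, a scaffold of membrane transporters in liver and kidney, had 11.5, 5.82 and 9.87 against 0 in each other tumor (adjusted p = 0.000336), and Slc3a1, a subunit of a cystine transporter, had 3.93, 2.60 and 3.24 against 0 (adjusted p = 0.000709). Gm20319 (25.7, 8.36 and 13.03) and Gm9754 (2.27, 5.26 and 2.77) were also listed at 0 in the 6 others, with adjusted p of 0.000709 and 0.00804. B230377A18Rik was listed at 0 in the 3 responsive tumors and at 6.08 to 15.7 in the others (adjusted p = 0.000709), and Gm14018 at 0 against 3.02 to 4.10 (adjusted p = 0.000541).

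All 7 share genomic bounds with another gene entry, as 23.8% of loci tested do and as 56.2% of the 763 loci do that are listed at 0 in some tumor and at 5 or more in another. Loci with an entry marked as failed in any tumor were left out, so these 0 values carried no such mark. Why they were listed at 0 was not tested, and the sources do not say whether reads were counted by strand. For Pdzk1 the overlapping Gpr89 had 6.70, 15.0001 and 7.32 against 6.32 to 8.19, and for Slc3a1 the overlapping Prepl had 7.31, 8.37 and 9.56 against 6.43 to 10.1. For Gm9754 the overlapping Fbxw8, a ubiquitin ligase subunit, had 23.8, 15.5 and 15.3 against 24.5 to 38.5, a difference of -0.81, so it was lower where Gm9754 was present. With loci that overlap no other named locus, 10041 in all, 0 passed the adjusted threshold, 825 were called higher and 451 lower at an unadjusted p under 0.05.

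**Figure D5:**
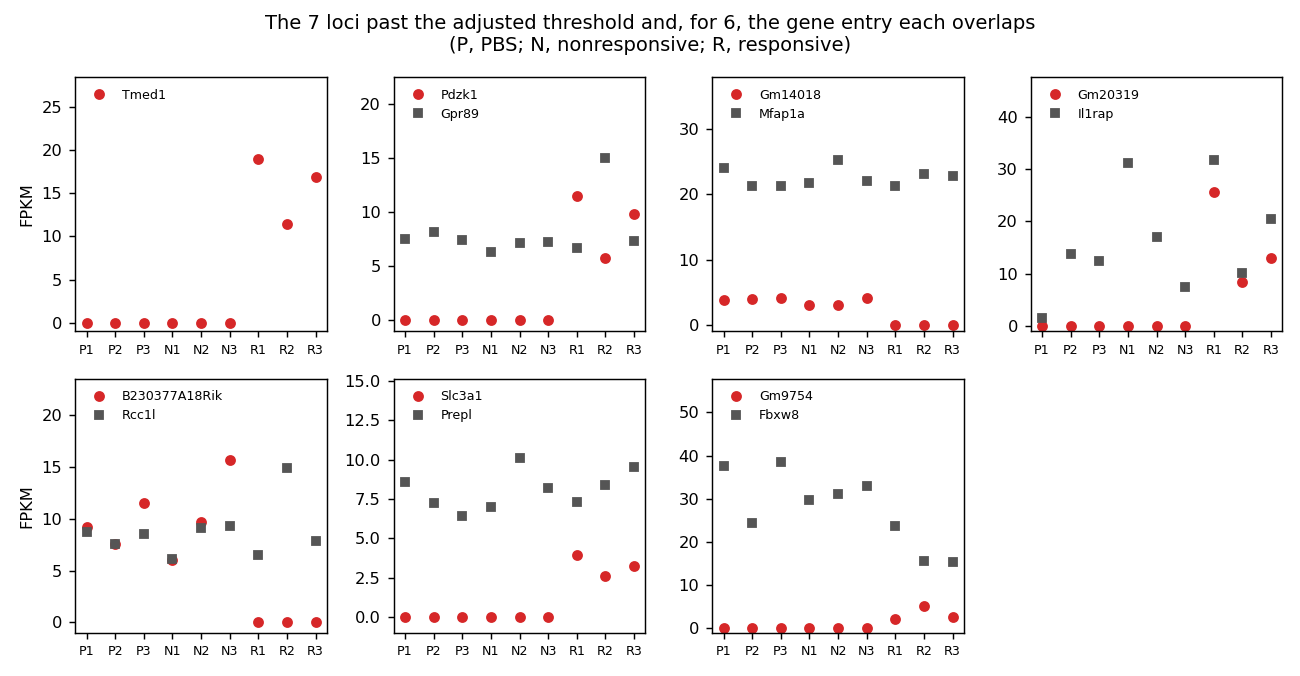
FPKM in each tumor (P, PBS; N, nonresponsive; R, responsive; replicates 1 to 3) of the 7 loci past the adjusted threshold and, for 6 of them, of the gene entry that overlaps each. The loci are at 0 in one set of tumors, whereas the overlapping entries drawn have FPKM above 0 in all 9.

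Other loci were listed at 0 in some tumors only. Mrpl27, a protein of the mitochondrial ribosome, had FPKM of 48.6, 69.3 and 50.6 in responsive tumors, 44.6 in nonresponsive tumor 1 and was listed at 0 in the 5 others (exact permutation p = 0.0238, limma p = 0.00266). Ccdc127 was listed at 0, 0 and 3.35 in responsive tumors and at 5.45 to 31.3 elsewhere (exact permutation p = 0.0238, limma p = 0.000299). Tirap, an adaptor of Toll-like receptors, had 7.06 in responsive tumor 1, was listed at 0 in responsive tumors 2 and 3 and had 7.61 to 9.76 in the others (exact permutation p = 0.0238, limma p = 0.00438). Mylpf, a light chain of fast muscle myosin, was at 2.26, 0 and 2.91 against 3.62 to 89.0 (exact permutation p = 0.0238, limma p = 0.0320, and 0.0518 to 0.130 without any 1 of PBS tumor 1, nonresponsive tumor 1 and responsive tumors 1 and 2). Its highest value was in nonresponsive tumor 3, where the skeletal muscle list also had its highest sum. Gm28959 was at 57.8, 35.3 and 36.9 in responsive tumors listed at 0 in PBS tumors 1 and 3 and nonresponsive tumor 3, and at 12.6 to 22.7 in the other 3 (exact permutation p = 0.0238, limma p = 0.0278, and 0.0569 to 0.0796 without any 1 responsive tumor). All of these but Gm28959 reached the FPKM filter only through the tumors where they are high.

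Called genes also differed in transcript length. Among single-gene loci the longest transcript had a median of 3160 nucleotides over all tested, 2497 over those called higher and 4409 over those called lower. The share called lower was 2.03% for transcripts under 1000 nucleotides and 9.07% for those over 8000, while the share called higher was 12.4% between 1000 and 2000 nucleotides and 4.26% over 8000. Outside the liver lists the median of loci called higher was still 2530 nucleotides. The median GC content was 49.4% over all tested, 50.8% over higher and 47.0% over lower loci. These lengths move with the calls in both directions, and their part in the differences was not tested.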

How the data were processed

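RNA from 9 whole tumors was sequenced once per tumor. The authors aligned reads with TopHat2 2.1.1 on Bowtie2 2.2.4 (submitters' processing notes, which name the build mm8) and deposited FPKM per gene entry for each tumor, with 95% bounds from Cufflinks. The version of Cufflinks is not given in the sources used here. In the files 3.31% of 36485 gene IDs share their bounds with GENCODE M21 on GRCm38, so no coordinates from the files are printed, and promoters come from RefSeq. A series table of the authors' own pairwise comparisons (fold changes and p-values) was not used.

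Entries were joined by gene name, unnamed entries left out and values set to log2(FPKM + 1). Loci with FPKM of at least 1 in 3 or more tumors were fitted with limma 3.58.1 in R 4.3.3 (trend, two-sided, responsive against the other 6, no covariates), with Benjamini-Hochberg adjustment. Exact permutation tests over the 84 ways to choose 3 of 9 tumors used scipy 1.17.1 and cannot give p below 0.0238. Group and replicate number came from the labels. One tumor per mouse is the replicate. The scripts were tested on simulated data. Total depth is not given in the sources used here, so only relative depth was read, and no interval that needs counts is given. The deposited bounds lay on either side by medians of 28 to 31% of the FPKM between 1 and 5, and 5.64 to 5.92% above 50. No 2 tumors shared more than 0.00762% of values.

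The members and the lists were chosen with earlier results of these data known, and the eosinophil list after these values were seen, so counts over lists carry no test. Named are the 10 largest increases and decreases without overlap among called loci above 0 in all tumors, the 5 of each among loci listed at 0, of each list described the 3 most abundant members and the 3 with the smallest p if called, and the genes counted by flow cytometry. Afp as a check of the graft, Stra6, Ido1, Wnt6, Ctrb1, Prss2, Dnase1l3, Asl, Siglecf and the overlapping entries were named after their values were seen. Apart from Ctrb1 and Prss2, members of lists without an entry or under the filter were not analysed here. Some loci that the rule names are not reported here.

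Alternatives were a pseudocount of 0.1, no filter, FPKM of at least 5, FPKM above 0 in all 9 tumors, upper-quartile scaling, rescaling to a common total, a 3-group fit, each group alone, a replicate block, robust estimation, a Student test per locus, single-gene loci and each tumor left out. Leaving out nonresponsive tumor 1 with responsive tumor 1, leaving out PBS tumor 1 with nonresponsive tumor 1, and keeping only loci that overlap no other were added after seeing the data.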

Additional observations from a re-analysis of the deposited data

Results flagged for a closer look

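Among the other 6 tumors, the gap of the highest or lowest tumor to its neighbor was divided by the whole range of log2(FPKM + 1) for each of 176 named loci, and 23 exceeded the 95% limit of Dixon's ratio for 6 values. Chance flags about 1 in 20 such groups. PBS tumor 1 was the lowest tumor at 13 of them. These were Serpinc1 (ratio 0.793), the Gstm1 locus (0.722), C3 (0.721), Cd83 (0.721), the Cyp3a11 locus (0.678), Bhmt (0.671), Zap70 (0.649), Fbp1 (0.648), Fcer2a (0.646), Cd5l (0.641), C4bp (0.638), Slc27a5 (0.631) and Slco1b2 (0.626). Most of the 13 are liver enzymes, transporters or secreted proteins.

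Nonresponsive tumor 1 was the lowest at Tcf7 (0.772), the locus of Mcm6 with Dars (0.703), Spp1 (0.676), the Tnpo1 locus (0.664) and the locus of Mcm7 (0.651). It was the highest at Mrpl27 (1.000), where the 5 others are listed at 0, and at Hnf4a (0.825). PBS tumor 2 was the highest at Cd8a (0.793) and Pax5 (0.691) and the lowest at Psmb8 with Tap1 (0.631).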

How the results depend on the processing

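The adjusted calls (5 higher, 2 lower) were 8 higher without a filter and in the 3-group fit, 2 and 1 at FPKM of at least 5, 0 and 0 among loci above 0 in all 9 tumors or overlapping no other locus, 13 and 6 against PBS tumors, 1 lower against nonresponsive tumors, 1 and 7 without nonresponsive 1 and responsive 1, and 345 and 38 without PBS 1 and nonresponsive 1. Leaving out each tumor gave 0 to 32 higher and 2 to 12 lower, with 32 and 12 without nonresponsive tumor 1. The unadjusted calls (1018 and 585) were 622 and 1734 after rescaling to a common total, 1275 lower against PBS tumors, 555 and 199 against nonresponsive tumors and 1443 lower without PBS 1 and nonresponsive 1, and 426 to 1341 and 230 to 2084 with each tumor left out. Loci without overlap (492 above, 346 below) were 263 and 915 after rescaling, 1497 and 2161 against PBS tumors, 608 below against nonresponsive tumors, 1246 and 1546 without nonresponsive 1 and responsive 1, 1198 and 1478 without PBS 1 and nonresponsive 1, and 513 to 1303 and 394 to 1401 with each tumor left out. Fewer samples or loci enter several of these fits, and otherwise the cause was not tested. The other 102 counts stayed within 1.5 times. No log2 difference of a called locus reversed its sign, and 271 single-locus values lost the call while 4029 kept their direction and side of the threshold. Of the 108 named loci called, 49 of 105 lost the call without responsive tumor 1, 30 without responsive tumor 3 and 17 without responsive tumor 2. List medians turned sign under rescaling for the macrophage, cytotoxic, vascular, fibroblast and NRF2 lists.

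With a replicate block 4 loci were higher and 2 lower at an adjusted p under 0.05, and 735 and 459 at an unadjusted p. Replicate numbers do not pair these tumors: same-numbered tumors had deviation correlations of -0.499 to 0.64, with 2 of 9 over 0.1. The depth limits loci of low FPKM most.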
